A study of Drosophila melanogaster with 12 samples.

Results

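Transcript levels in the larval body wall of Drosophila melanogaster were compared between smox mutants and w1118, across all genes that could be measured in both. Smox, the fly Smad2, is the transcription factor through which Activin-type TGF-beta ligands act. An Activin ligand brings a type II receptor together with the type I receptor Baboon, Baboon phosphorylates Smox, and Smox enters the nucleus with its partner Medea to change transcription. In larvae this branch is known for roles in body size, in muscle and its nerve synapse, in nutrient and ion balance, and in the timing of the ecdysone pulses that end larval life.

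The smox larvae had the genotype Smox(Smad2)F4/Y. They carried 1 mutant X chromosome over a Y and were male by genotype. The reference, w1118, is a white-eyed laboratory stock used as wild type, and no source used here gives the sex of its larvae. Both groups fed on yeast paste on apple juice plates, had no drug, heat step or transgene driver, and were dissected as late foraging third-instar larvae. The sample was the carcass, that is, the body wall muscle and epidermis after the gut had been taken out. Each group had 3 libraries, which the authors summarised as 1 FPKM per gene, a fragment count scaled to transcript length and to the size of the library. No spread between libraries can therefore be given beside any level. All larvae of smox carried the same allele, so effects of Smox and of anything else on that chromosome or in that stock cannot be told apart, and neither can effects of sex and genotype.

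Genes were taken where both groups were above 0 FPKM, the mean was at least 1 FPKM and the gene name occurred once, which 7998 of 13650 rows met. The authors tested 7977 of these, and all counts and medians below are over those 7977. The other 21 are left out; they are genes such as Ilp5 and MtnD and 6 snoRNA genes. Of the rows that did not qualify, 2150 were at 0 in both groups, 973 were at 0 in 1 group, 2396 had a mean under 1 FPKM, and 133 had a name that occurs more than once. A gene is said to have risen or fallen where q, the p-value adjusted for multiple tests, fell under 0.05 in the authors' deposited table. Its lowest q, 0.000152, is shared by 2679 called genes, and genes named below as risen or fallen without a q had one of at most 0.000292.

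The targeted gene, Smox, fell from 23.9 to 1.40 FPKM (log2 ratio -4.10). The sources used here do not say whether the allele leaves a transcript. The eye color gene w was at 0.0159 FPKM (w1118) and 0.263 FPKM (smox) and was not tested. The male-specific RNA roX1, which coats the X chromosome in dosage compensation, rose from 63.9 to 103 FPKM, and its partner roX2 rose from 6.23 to 9.30 FPKM (q = 0.0274 in the authors' deposited table). The 6 Y-linked fertility genes looked at, kl-5, kl-3, kl-2, Ppr-Y, Ory and Pp1-Y2, were listed at 0 in both groups, so they give no information on sex in this tissue. Muscle transcripts were abundant in both groups: the sarcomere list summed to 73800.1 and 74857 FPKM without Mhc, the muscle myosin heavy chain, which cannot be compared: the authors' deposited table lists 2892 FPKM for w1118, 0 for smox and q = 1.

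Most genes moved little and more of them moved down than up. Of the 7977 genes, 58.1% were called: 18.4% rose (1466 genes) and 39.8% fell (3172 genes). The median gene stood at -0.14 on the log2 scale of smox over w1118, with the 25th percentile at -0.37 and the 75th at 0.11. Among called genes the median change was 1.44-fold for those that rose and 1.33-fold for those that fell. Of all called genes 68.4% fell, and the surplus of falls lay almost wholly among changes under 2-fold. Most called genes, 2901 of them, changed by 1.2-fold to 2-fold. Of the 1012 called genes that changed by less than 1.2-fold, 71.4% fell, whereas of the 725 that changed by at least 2-fold, 50.8% fell. At least 2-fold, 357 genes rose (4.48%) and 368 fell (4.61%). With folds centred on the median gene this split became 433 higher and 292 lower, so this split depends on the scaling. Among all called genes centring left 67.4% lower, but it kept the authors' calls. How the shares of 68.4% and 71.4% depend on the scaling was therefore not tested. At least 4-fold, 125 genes rose and 122 fell.

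**Figure D1:**
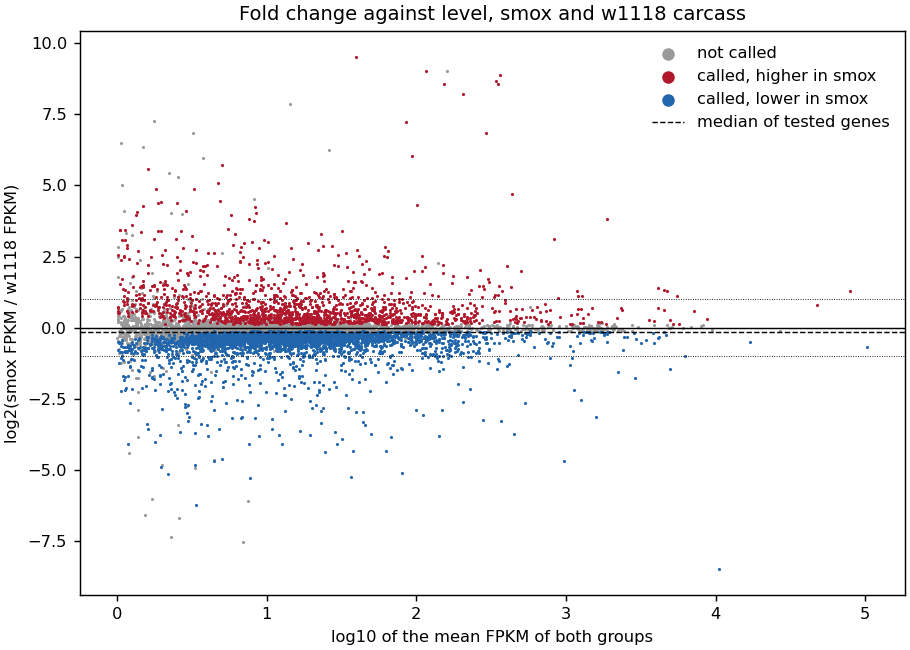
Each point is 1 of the 7977 tested genes, with the log10 of its mean FPKM across and the log2 ratio of smox to w1118 up; red genes were called higher, blue lower and grey neither, dotted lines mark 2-fold and the dashed line marks the median of -0.14. The blue band just below 0 holds the many small falls, while genes beyond 2-fold lie about evenly above and below.

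Level and gene length were set against the changes. Genes at 1 to 3 FPKM were called least often, with 17.3% higher and 25.3% lower, and genes at 100 to 300 FPKM most often, with 26.2% higher and 48.3% lower. Among the 338 genes at 300 FPKM or more the sides were closest, with 26.6% higher and 29.6% lower and a median of -0.03. Changes of at least 2-fold in the higher direction were found for 8.25% of genes at 1 to 3 FPKM, 3.04% at 10 to 30 FPKM and 7.10% at 300 FPKM or more. Among genes with a locus interval of their own, the 1421 with the longest loci (7287 bases or more) had a median of -0.09, and 26.9% of them were called higher. Of the 1421 with the shortest loci (at most 1671 bases), 17.2% were called higher, but 6.69% rose and 8.87% fell by at least 2-fold, against 3.94% and 3.66% among the longest.

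By chromosome, the large arms were alike and the small heterochromatic pieces were not. The medians of 2L, 2R, 3L and 3R lay between -0.15 and -0.13 on the log2 scale, and that of the X, which is present once in smox larvae, was -0.15 over 1304 genes. Chromosome 4, the dot chromosome, had a median of -0.35 over 66 genes, 43 of which fell and 4 rose. Of these, CG31997 fell from 1510.3 to 608 FPKM. The titin-like muscle kinase gene bt, also on chromosome 4, rose from 204 to 279 FPKM.

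The clearest departure was 2RHet, a scaffold of the heterochromatin beside the centromere of 2R. All 11 of its tested genes fell, with a median of -1.03, beside 39.8% of all genes. These genes were picked out after their values were seen, and the median was -0.53 for those with a mean of at least 5 FPKM. The 5 genes at the lowest coordinates fell between 2.69-fold and 3.94-fold, and 3 of them changed by nearly the same factor. They were rl, the ERK kinase of the Ras pathway, which fell from 96.7 to 35.8 FPKM (log2 ratio -1.43), CG40191, which fell from 115 to 42.6 FPKM (-1.43), and Yeti, which fell from 222 to 80.9 FPKM (-1.46). The other 6 genes of the scaffold fell between 1.14-fold and 2.04-fold. On this scaffold CG40498, eIF-4B and Haspin had q = 0.00882, 0.0108 and 0.0013 in the authors' deposited table. The euchromatic end of the same arm went the same way: of 16 tested genes in the 1 Mb of 2R nearest the centromere, 13 fell and 0 rose, with a median of -0.57. In the 1 Mb of 2L nearest the centromere 16 of 19 fell and 0 rose (median -0.38), and in that of 3L 3 of 6 fell and 0 rose (median -0.16), while on 3R 21 of 62 fell and 14 rose (median -0.08) and on the X 7 of 19 fell and 3 rose (median -0.04). The scaffolds of chromosome 3 were less uniform, with 6 of 12 genes lower on 3LHet and 6 of 9 on 3RHet.

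**Figure D2:**
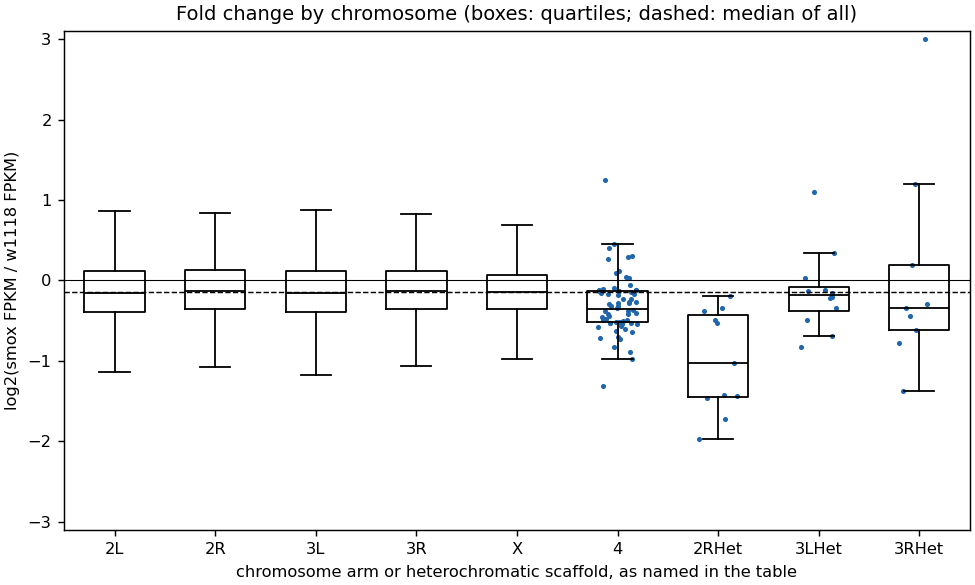
Boxes give the quartiles of the log2 ratio of smox to w1118 over the tested genes of each arm or scaffold, with whiskers to the furthest gene within 1.5 box lengths, a dashed line at the median of all genes and a dot for each gene where there are under 100; the axis ends at 3 and 1 gene of 3RHet beyond it is drawn there. The 5 large arms sit at the same height, chromosome 4 lies below them, and every gene of 2RHet is below 0.

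A few secreted and cuticle genes carried much of the signal. The 10 highest rows held 32.4% of summed FPKM in w1118 and 34.8% in smox. Lcp9, a larval cuticle protein, rose from 46236 to 112558 FPKM, the largest gain of any gene in absolute terms. Lcp2, another cuticle protein, rose from 34779 to 60296 FPKM. CG42500, the most abundant row of w1118, lost the most and fell from 127339 to 78708 FPKM. Summed over the cuticle protein list, FPKM went from 128432 to 208985 FPKM, although as many members fell as rose (22 each of 53). FPKM are relative to the library total, which these genes are part of. Other large gains were in Cpr47Ec, which rose from 2726 to 6692 FPKM, CG3244, which rose from 2608 to 6446 FPKM, and the muscle calponin Mp20, which rose from 5714 to 8596 FPKM. Among the large losses, the cuticle genes Lcp3, Cpr78E and Cpr49Ac fell to 14196, 2662 and 1131 FPKM, and the odorant-binding protein gene Obp56d fell from 2859 to 325 FPKM. CG34227, at 28079 FPKM (w1118) and 25807 FPKM (smox), was among the largest differences in FPKM but missed the threshold (q = 0.0687 in the authors' deposited table).

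Below the 10 strongest changes, the next 15 in each direction were of different kinds. Adh, the alcohol dehydrogenase, rose from 172 to 1496 FPKM, and the uncharacterised CG1143 and CG13230 rose from 32.4 to 844 FPKM and from 248 to 3530.4 FPKM. Eip78C, an ecdysone-induced nuclear receptor, rose from 0.846 to 15.9 FPKM. The P450 genes Cyp6a2 and Cyp6d2 and the serpin Spn100A each rose from under 2 FPKM to between 10.1 and 25.1 FPKM. Of the 15 falls, Sgs4, Sgs5 and Sgs7 encode salivary glue proteins. A further pair, Cpr67Fa2 and Cpr49Ad, encode cuticle proteins, and Jon65Aiii encodes a digestive protease. The row that names both esterases Est-6 and Est-P fell from 127 to 8.90 FPKM. CG18594 and CG8664 fell from 59.6 to 3.96 FPKM and from 92.7 to 6.94 FPKM.

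Along the order of tested genes, those that changed by at least 2-fold lay next to each other in 11 runs of 3 to 5 genes. Of these runs 4 were higher and 7 lower. Genes that were not tested were skipped, so members of a run need not be adjacent. The longest, 5 genes on 2L between bases 3173283 and 3355000 (the tables do not name their genome build), comprised CG31698, CG15404, CG9664, CG9663 and E23, all lower. Within it CG15404 ends at base 3174442 and CG9664 starts at base 3291245. CG31698 and CG15404, which are adjacent, fell from 46.5 to 2.24 FPKM and from 36.4 to 2.63 FPKM, and E23, an ecdysone-induced ABC transporter, fell from 4.57 to 2.15 FPKM. A run of 4 on 3L held the digestive proteases yip7, Jon65Aiv and Jon65Aiii and their neighbor tan. Runs of 3 included both glue clusters: Sgs8, Sgs7 and Sgs3 on 3L, and CG7587, Sgs5 and CG7606 on 3R. In the latter, CG7606 fell from 55.5 to 3.27 FPKM. Another run of 3 was higher on 3R, with Spn100A, CG11313 (q = 0.000292 in the authors' deposited table) and the sterol carrier gene Npc2g, which rose from 2.66 to 12.5 FPKM. The run CG11852, CG11854 and bam contains a pair, CG11854 and bam, that the table places in the same interval, so the fall of bam, a germline differentiation gene, from 6.36 to 0.223 FPKM cannot be told apart from that of CG11854. The pair CG32212 and pncr009:3L share an interval in the same way. Of 716 genes on the arms that changed by at least 2-fold, 87 had a following tested gene that changed as much in the same direction. Another 45 had one that changed as much in the opposite direction. Over all tested genes 4.48% rose and 4.61% fell by at least 2-fold. Pairs that share an interval were counted as neighbors too, and whether changed genes lie together more than in a random order was not tested.

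Neighbors moved apart around CG17105, the gene with the deepest fall. Within 20 kb on either side of it on 2L lie 9 other genes. CG17105, CG17107, CG7299, CG7296 and CG7294 lie in a row, at 582 to 21169 FPKM in w1118. CG17107, separated from CG17105 by 616 bases, rose from 2271 to 5939 FPKM, whereas CG17105 itself fell from 21169 to 58.7 FPKM. The next gene, CG7299, fell from 1863 to 410.2 FPKM, and the one after that, CG7296, stood at 4941 FPKM (w1118) and 5409.8 FPKM (smox) (q = 0.0461 in the authors' deposited table). CG7294 then rose from 582 to 1187 FPKM. Lip1, a lipase gene at the far side, fell from 2.52 to 0.600 FPKM. Along the 5 genes in a row the order of changes was lower, higher, lower, slightly higher and higher.

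**Figure D3:**
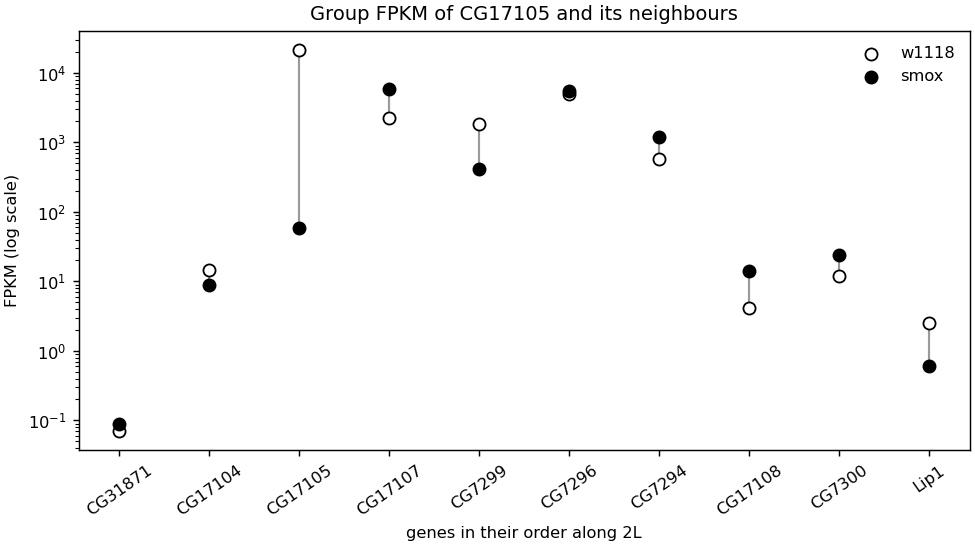
Open circles give the w1118 FPKM and filled circles the smox FPKM, on a log axis, of CG17105 and the genes within 20 kb of it, in order along 2L. CG17105 drops from 21169 to 58.7 FPKM between CG17104, which fell far less, and CG17107, which rose, and CG31871 lies under 0.1 FPKM in both groups.

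Gene lists drawn from general knowledge were read next, each against the shares over all genes (18.4% higher, 39.8% lower, median -0.14). The 74 lists hold 1588 of the 7977 genes. In 44 lists more members fell than rose, in 24 more rose than fell and in 6 the numbers were equal. With folds centred on the median gene, the numbers of members above and below changed in 10 of 74 lists, by at most 3 genes. The authors' calls were kept in this, so only the 45 called genes with the smallest falls could change side. It does not show how the calls depend on the scaling.

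**Figure D4:**
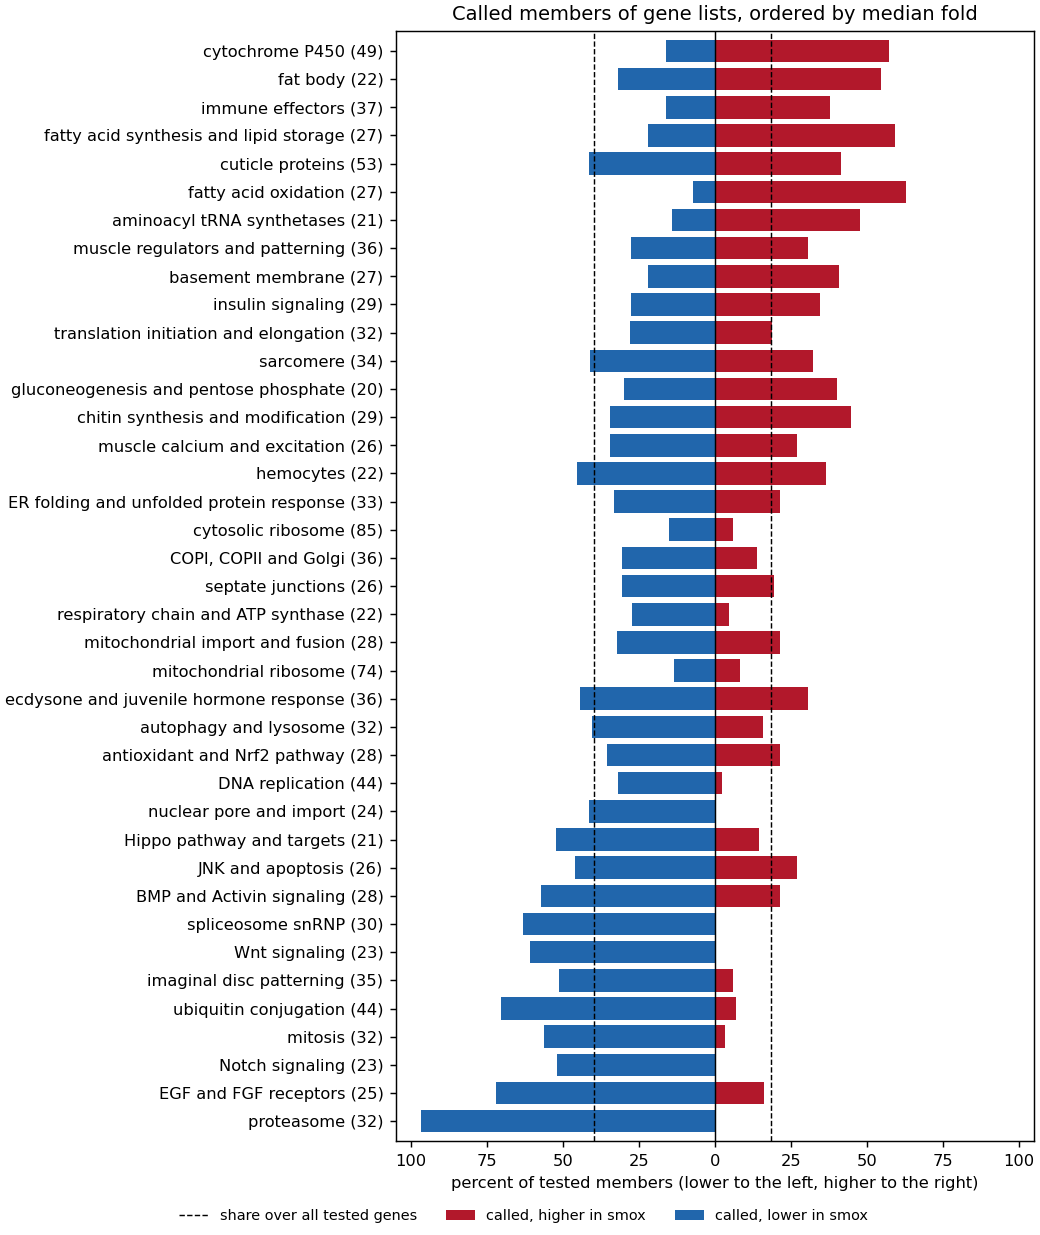
For each list with at least 20 tested members (number in brackets), the blue bar gives the percent of members called lower and the red bar the percent called higher, with lists ordered by median fold and dashed lines at 39.8% and 18.4%, the shares over all tested genes. The proteasome, EGF and FGF, ubiquitin and spliceosome lists extend furthest to the left, and fatty acid oxidation, lipid synthesis and P450 lists furthest to the right.

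The machinery around the proteasome fell with it, at a smaller scale. In the proteasome list itself 0 of 32 tested members rose and 31 fell (median -0.91). Among genes of ubiquitin conjugation, which mark proteins for degradation, 3 of 44 tested members rose and 31 fell (median -0.34). The deepest falls there were in Rpn11, a proteasome subunit that both lists hold and that fell from 202 to 101 FPKM, in the ubiquitin-conjugating enzyme gene ben, which fell from 214 to 123 FPKM, and in Ufd1-like, which fell from 56.9 to 32.9 FPKM. Ufd1 works with the ATPase that extracts ubiquitin-tagged proteins. The polyubiquitin gene Ubi-p63E went the other way and rose from 117 to 141 FPKM, as did Ubi-p5E, which rose from 138 to 208 FPKM. In the COP9 signalosome, which trims cullin ligases, 0 of 8 tested members rose and 7 fell (median -0.28). Of the CCT chaperonin and its helper prefoldin, which fold actin and tubulin, 0 of 15 tested members rose and 12 fell (median -0.23). In the list for folding in the endoplasmic reticulum 7 of 33 tested members rose and 11 fell. These shares, 21.2% and 33.3%, are close to the 18.4% and 39.8% over all genes. The stress sensor Ire1 rose from 12.1 to 20.6 FPKM and the other sensor Atf6 fell from 32.1 to 18.1 FPKM.

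The proton pump of lysosomes and other acid compartments, the V-ATPase, was lower almost throughout. In that list 0 of 17 tested members rose and 16 fell (median -0.47). Vha16, the proteolipid subunit of the membrane ring, fell from 628 to 325 FPKM and VhaPPA1-1, another ring subunit, fell from 205 to 127 FPKM. The exception was Vha100-2, an a-subunit gene, at 116 FPKM (w1118) and 116 FPKM (smox) (q = 0.96 in the authors' deposited table). Among autophagy and lysosome genes 5 of 32 tested members rose and 13 fell. These shares, 15.6% and 40.6%, are close to the 18.4% and 39.8% over all genes. Atg1, the kinase that starts autophagy, rose from 9.10 to 16.3 FPKM and ref(2)P, the cargo receptor, rose from 80.7 to 114 FPKM, while the late endosome GTPase gene Rab7 fell from 166 to 117 FPKM. Of the heat shock list 7 of 19 tested members rose and 8 fell. Hsp83, the fly Hsp90, fell from 232 to 128 FPKM, and the row of Hsp22 and Hsp67Bb rose from 39.4 to 132 FPKM.

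Among genes of RNA handling and of the cell cycle, spliceosome and mitosis lists had more falls than the share over all genes. The nuclear import and DNA replication lists did not stand apart from it in falls. Rises were few in all of these lists, from 0% to 3.13%, beside 18.4% over all genes. In the spliceosome list 0 of 30 tested members rose and 19 fell (median -0.24), with the splicing factor xl6 falling most, from 16.1 to 10.3 FPKM. In the nuclear pore and import list 0 of 24 tested members rose and 10 fell (median -0.18), a share of falls close to that over all genes. Its deepest fall was in Ntf-2, the carrier that returns Ran to the nucleus, which fell from 127 to 74.2 FPKM. For mitosis 1 of 32 tested members rose and 18 fell (median -0.36). The securin gene pim fell from 3.16 to 1.56 FPKM (q = 0.00345 in the authors' deposited table) and Cyclin A, CycA, fell from 6.81 to 4.13 FPKM. Among genes with a mean of at least 5 FPKM, 6 members fell and 0 rose. For DNA replication 1 of 44 tested members rose and 14 fell (median -0.16), a smaller share of falls than over all genes.

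In lists of developmental signaling 52.2% to 75% of members fell, beside 39.8% over all genes. Rises made up 0% to 7.14% in the Wnt, Notch, Hedgehog and Hox lists, beside 18.4% over all genes. In the EGF and FGF list and the Hippo list rises made up 16% and 14.3%, near that share. Among genes of EGF and FGF signaling 4 of 25 tested members rose and 18 fell (median -0.39). The protease gene rho, which releases EGF ligands, fell from 30.5 to 12.9 FPKM, and bnl, an FGF, fell from 2.28 to 1.25 FPKM. In the core of that pathway rl fell as given above, while aop, a repressor of Ras target genes, rose from 5.26 to 7.53 FPKM. Leaving out genes with a mean under 5 FPKM left 11 falls. In Wnt signaling 0 of 23 tested members rose and 14 fell (median -0.28). There the Wnt carrier wls fell from 10.1 to 6.29 FPKM, and the receptor fz fell from 2.52 to 1.61 FPKM. In Notch signaling 0 of 23 tested members rose and 12 fell (median -0.37), with falls in the target genes malpha (from 6.29 to 3.52 FPKM) and HLHm7 (from 1.60 to 0.857 FPKM; q = 0.0013 and 0.0454 in the authors' deposited table). In Hedgehog signaling 1 of 14 tested members rose and 8 fell (median -0.31), with shf, a factor for Hedgehog spread, falling from 6.59 to 3.38 FPKM. In the Hippo growth pathway 3 of 21 tested members rose and 11 fell (median -0.20), and the cadherin gene ds fell from 3.12 to 2.05 FPKM. In the list of Hox genes and their Polycomb and Trithorax regulators 0 of 16 tested members rose and 12 fell (median -0.24), among them the Hox cofactor exd, which fell from 62.01 to 43.97 FPKM.

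Stress signaling and clock lists had more falls than rises, as did all genes (39.8% lower, 18.4% higher), with some rises in each list. In the JNK, JAK-STAT and clock lists 46.2%, 54.5% and 50% fell, and 26.9%, 18.2% and 20% rose. In the list of JNK signaling and apoptosis 7 of 26 tested members rose and 12 fell (median -0.20). Xrp1, a transcription factor of stressed and slow-growing cells, rose from 204 to 347 FPKM, and Gadd45 rose from 18.5 to 27.8 FPKM. The apoptosome gene Ark fell from 11.3 to 6.47 FPKM and W, the death gene also called hid, fell from 1.99 to 1.14 FPKM. Among the clock genes 2 of 10 tested members rose and 5 fell (median -0.21). Both that rose were cwo and Pdp1, which rose from 9.97 to 16.9 FPKM and from 13.6 to 22.4 FPKM. Of the 5 falls, vri fell from 18.9 to 13.3 FPKM and cyc fell from 4.49 to 3.33 FPKM (q = 0.00736 for cyc in the authors' deposited table). In the JAK-STAT list 2 of 11 tested members rose and 6 fell, and TotA, a stress peptide, fell from 23.5 to 3.09 FPKM.

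**Figure D5:**
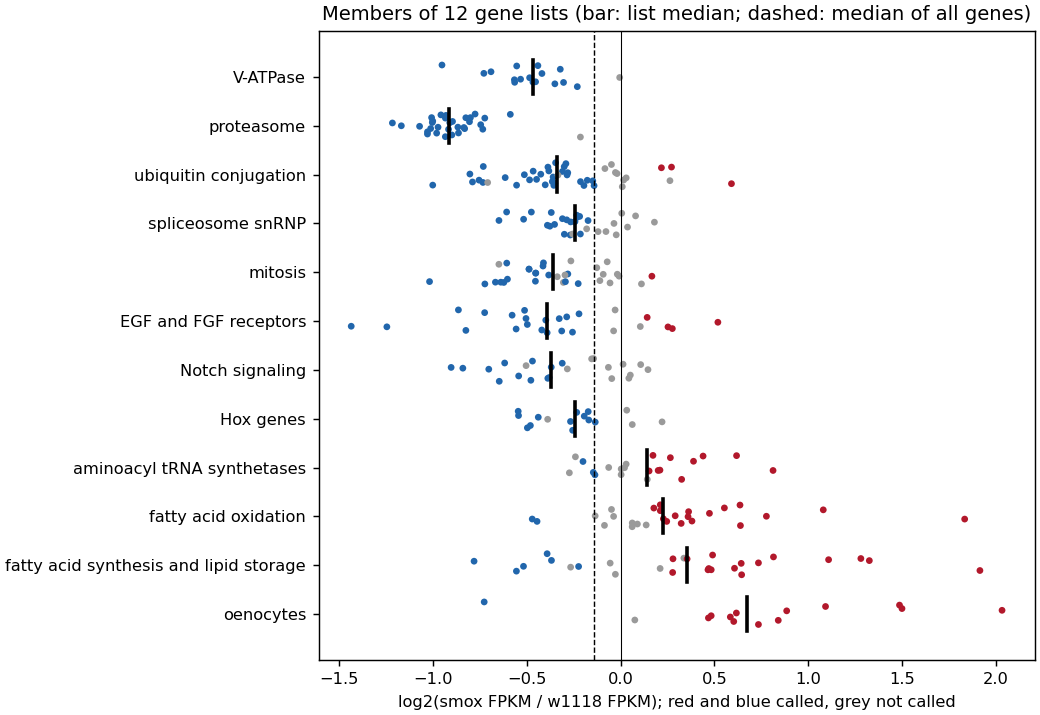
Each dot is 1 tested member of a list placed by its log2 ratio of smox to w1118, red where called higher, blue where called lower and grey where not called; black bars are list medians and the dashed line is the median of all genes at -0.14. V-ATPase and proteasome members lie almost wholly to the left, fatty acid oxidation and oenocyte members mostly to the right, with medians of 0.23 and 0.68.

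Lipid metabolism went the other way. Of the list for fatty acid oxidation, 17 of 27 tested members rose and 2 fell (median 0.23), beside 18.4% higher over all genes. The acyl-CoA synthetase gene bgm rose from 1.74 to 6.20 FPKM and CG3902, an acyl-CoA dehydrogenase by annotation, rose from 177 to 374 FPKM. The acyl-CoA oxidase genes of the peroxisome, CG5009 and CG9527, fell from 38.7 to 28.4 FPKM and from 18.8 to 13.6 FPKM. In the list for fatty acid synthesis and lipid storage 16 of 27 tested members rose and 6 fell (median 0.35). The elongase gene bond rose from 20.9 to 50.6 FPKM and the lipase gene Lip4 rose from 1.05 to 3.97 FPKM, whereas ATPCL, which makes cytosolic acetyl-CoA, fell from 112 to 76.3 FPKM. Oenocytes, the lipid-processing cells under the epidermis that make surface hydrocarbons, had 12 of 14 listed genes higher and 1 lower (median 0.68). CG17560, a fatty acyl reductase family gene, rose from 6.54 to 26.7 FPKM and CG18609, an elongase family gene, rose from 24.3 to 68.2 FPKM. Cyp4g1, the hydrocarbon-forming P450 and the most abundant of the list, rose from 626 to 950.2 FPKM and was named after its values were seen. In whole carcass, more cells of a type and more RNA per cell cannot be told apart, for oenocytes as for any cell type below.

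Genes that supply amino acids and charge tRNAs included many that rose. Of the aminoacyl tRNA synthetases 10 of 21 tested members rose and 3 fell (median 0.14). Aats-glupro rose from 21.01 to 36.9 FPKM, Aats-asn rose from 47.04 to 72.2 FPKM and Aats-lys rose from 38.5 to 52.2 FPKM, and 0 of the list were called with a 2-fold change. Of the amino acid transporters 9 of 19 tested members rose and 6 fell, where 1 of the falls is Atg7, an autophagy gene that an older symbol brings into the list. JhI-21, a leucine transporter subunit, rose from 10.5 to 36.9 FPKM, while its relatives mnd and CG1607 fell from 15.2 to 9.18 FPKM and from 27.1 to 14.2 FPKM. In the list for glycogen and trehalose 9 of 18 tested members rose and 6 fell. The sides were opposite for transport and cleavage of trehalose, the blood sugar of insects: the transporter Tret1-1 rose from 20.95 to 64.98 FPKM and the enzyme Treh fell from 54.9 to 19.3 FPKM. Among genes of gluconeogenesis and the pentose phosphate path 8 of 20 tested members rose and 6 fell. Gpo-1, a mitochondrial glycerophosphate oxidase, fell from 48.2 to 22.5 FPKM, Tal, the transaldolase, fell from 323 to 175 FPKM, and the malic enzyme gene Men rose from 138 to 219 FPKM. In the list of purine and pterin synthesis 6 of 18 tested members rose and 7 fell: ry, the xanthine dehydrogenase, fell from 8.21 to 1.93 FPKM and the pteridine gene pr fell from 63.1 to 26.9 FPKM, while the purine synthesis gene ade3 rose from 7.05 to 15.5 FPKM (q = 0.000292 in the authors' deposited table).

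Transport and detoxification genes outside the P450 and glutathione transferase families were divided. Of the carboxylesterases and ABC transporters 5 of 11 tested members rose and 5 fell. The multidrug transporter gene Mdr49 rose from 2.10 to 11.8 FPKM, and its relative MRP fell from 101 to 62.7 FPKM. Of the esterases, alpha-Est10 rose from 10.6 to 37.99 FPKM. Ugt37c1, a glycosyltransferase, rose from 6.49 to 19.2 FPKM, 1 of 4 that rose among 6 tested, of which 1 fell. For metal handling 3 of 18 tested members rose and 4 fell. Tsf1, the circulating iron carrier transferrin, rose from 814 to 1742 FPKM, whereas the zinc transporter Zip3 fell from 30.5 to 16.7 FPKM and the metal transporter Mvl fell from 48.7 to 32.1 FPKM. The ferritin subunit genes Fer1HCH and Fer2LCH, at 181 FPKM (w1118) and 176 FPKM (smox) and 272 FPKM (w1118) and 250.3 FPKM (smox), missed the threshold (q = 0.764 and 0.226 in the authors' deposited table). In the antioxidant list 6 of 28 tested members rose and 10 fell (21.4% and 35.7%), beside 18.4% and 39.8% over all genes. The glutathione synthesis gene Gclc rose from 5.43 to 10.8 FPKM, while cnc, the fly Nrf2, fell from 83.2 to 56.7 FPKM and CG9027, a superoxide dismutase by annotation, fell from 309 to 152 FPKM.

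The epidermis changed gene by gene. For chitin synthesis and modification 13 of 29 tested members rose and 10 fell. The deacetylase gene Cda5 rose from 11.96 to 22.9 FPKM and obst-E, a chitin-binding protein of larval shape, rose from 1770.2 to 2874 FPKM, while the chitinase gene Cht5 fell from 77.2 to 41.1 FPKM and Idgf1, a chitinase-like growth factor, fell from 12.8 to 5.19 FPKM. Of 14 tanning genes, 9 rose and 4 fell. Beside the rises of e and ple, b, which makes beta-alanine, rose from 17.4 to 112 FPKM, but Ddc, the dopa decarboxylase that follows ple in the path, fell from 239 to 135 FPKM. In the yellow family yellow-c rose from 15.1 to 108 FPKM and yellow-b fell from 109 to 38.5 FPKM, 3 members rising and 3 falling of 8. The sodium pump subunits that also build septate junctions, Atpalpha and nrv1, fell from 187 to 104 FPKM and from 145 to 99.97 FPKM. The adhesion protein gene of the same junctions, Nrg, rose from 51.97 to 72.7 FPKM. In that list 5 of 26 tested members rose and 8 fell (19.2% and 30.8%), beside 18.4% and 39.8% over all genes. Of 5 gap junction innexins, inx3, inx2 and ogre fell, inx3 from 163 to 119.9 FPKM, inx2 from 134 to 98.7 FPKM and ogre from 54.7 to 42.3 FPKM, and shakB rose from 2.40 to 3.74 FPKM.

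Secreted carrier families had some of the widest ranges. Of the 12 tested odorant-binding proteins 3 rose and 6 fell. Obp99b rose from 244 to 394 FPKM and Obp83g rose from 340.3 to 509 FPKM, and the falls included Obp56d, given above, and Obp56e, which fell from 3.72 to 0.825 FPKM (q = 0.0169 in the authors' deposited table). With the minimum at 5 FPKM 3 falls were left and the median of the list moved from -0.43 to 0.05. Of 8 genes of the takeout family, proteins that bind small lipids such as juvenile hormone, 4 rose and 4 fell. The 4 that fell all fell by more than 2-fold: beside CG11854, CG7953 fell from 37.2 to 5.66 FPKM, CG8997 fell from 36.1 to 6.93 FPKM and CG11852 fell from 44.9 to 18.2 FPKM. CG7953 and CG8997 share an interval, so their falls cannot be told apart.

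Muscle genes moved in both directions. In the sarcomere list 11 of 34 tested members rose and 14 fell (median 0.00), and 0 members were called with a 2-fold change. The 3 largest rises were in Msp-300, a nuclear anchor of muscle, which rose from 42.98 to 85.7 FPKM, in sls, a titin-like spring, which rose from 55.95 to 89.3 FPKM, and in Mp20. Falls were led by TpnC41C, a troponin C, which fell from 4.71 to 2.38 FPKM (q = 0.00176 in the authors' deposited table), and cher, the filamin, which fell from 983 to 621 FPKM. Mlc2 and Mlp60A, at 9693 FPKM (w1118) and 9165 FPKM (smox) and 7978 FPKM (w1118) and 8414 FPKM (smox), missed the threshold (q = 0.403 and 0.266 in the authors' deposited table). Of the calcium and excitation list 7 of 26 tested members rose and 9 fell: the potassium channel Sh fell from 4.22 to 1.85 FPKM, the sodium-calcium exchanger Calx fell from 7.18 to 4.51 FPKM, and the calcium channel Ca-alpha1D rose from 5.55 to 8.25 FPKM. Of the regulators and attachment genes of muscle 11 of 36 tested members rose and 10 fell, among which Mef2, the main muscle transcription factor, rose from 26.01 to 35.9 FPKM and sr, the tendon factor, rose from 6.22 to 9.61 FPKM. In the basement membrane list 11 of 27 tested members rose and 6 fell, where 1 member not called is glu, a mitosis gene that the mitosis list also holds. Ndg, the nidogen, rose from 38.7 to 78.6 FPKM and trol, the perlecan, rose from 8.29 to 13.3 FPKM, while PH4alphaEFB, which modifies collagen, fell from 21.3 to 14.6 FPKM.

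Markers of other cell types moved with the groups to different degrees, and their part in the results above was not tested. The salivary gland list summed from 661 to 39.5 FPKM, with 7 of 8 tested members lower and 9 of its 26 rows at 0 in both groups. The midgut list summed from 1032 to 705 FPKM. In it 9 of 13 tested members fell, all by more than 2-fold, while Peritrophin-A rose from 399 to 534 FPKM, and 18 of the 57 rows were at 0 in both groups. Imaginal disc patterning genes summed from 256 to 203 FPKM, and 2 of 35 tested members rose and 18 fell; eya fell from 2.04 to 0.721 FPKM and ap fell from 2.70 to 1.54 FPKM, but with the minimum at 5 FPKM 2 falls and 0 rises were left. The fat body list summed from 1724 to 2772 FPKM, and 12 of 22 tested members rose and 7 fell. Its largest rise was in Cyp18a1, an ecdysone-degrading P450 that the P450 list also holds, from 6.57 to 47.98 FPKM. In the same list fat-spondin fell from 16.6 to 6.19 FPKM.

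The sums of the blood cell, glial and tracheal lists changed less, although many of their members were called in either direction. The hemocyte list summed from 861 to 839 FPKM, and 8 of 22 tested members rose and 10 fell. The clotting gene fon rose from 14.9 to 32.7 FPKM and the phagocytic receptor gene eater fell from 11.4 to 7.94 FPKM. The neuron list summed from 55.8 to 61.8 FPKM, with 2 of 9 tested members higher and 0 lower. The glial list summed from 257 to 237 FPKM, and 3 of 9 tested members rose and 5 fell. Indy, a citrate transporter, rose from 58.1 to 122 FPKM and Gs2, a glutamine synthetase, fell from 99.56 to 26.45 FPKM. These 2 genes made up much of the glial sum and moved in opposite directions, so its small change says little about glia. The tracheal list summed from 2711 to 3128 FPKM, and 7 of 17 tested members rose and 6 fell. Malpighian tubule genes summed from 352 to 279 FPKM, with 4 of 10 tested higher and 2 lower, and the testis list summed from 90.1 to 79.4 FPKM, with 1 of 5 tested higher, 2 lower and 11 of its 28 rows at 0 in both groups.

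The other experiment of the series, activated Baboon (baboACT) in muscle under MhcGal4 against MhcGal4 alone, shares no libraries with this comparison. It used other genotypes with tub-Gal80ts, standard vial food and 12 h at 30 °C, so values are set side by side without a test. In it 29.1% of 8018 genes rose and 14.7% fell, 4.58% and 1.73% by at least 2-fold. Among 7768 genes tested in both, the log2 ratios had Pearson's r of -0.23 and Spearman's rho of -0.37 across genes, which share libraries and are no independent points. Of the 346 genes that fell by at least 2-fold in smox and were tested in both, 211 rose and 46 fell with baboACT. Of the 293 that rose by at least 2-fold, 58 rose and 132 fell with baboACT. The neighbor runs did not all follow that pattern. The glue clusters and CG14850, CG8087 and CG14852 fell in smox and had log2 ratios between 1.90 and 6.19 with baboACT, though CG7606 and the CG14850 run were not called there, whereas yip7, Jon65Aiv and Jon65Aiii were lower in both, at -2.92, -1.36 and -2.26 with baboACT. On 2RHet, 4 of the 5 genes at the lowest coordinates were called higher with baboACT, and 3 of them at close to the same factor: rl went from 43.5 to 94.98 FPKM (log2 ratio 1.13), CG40191 from 43.5 to 89.9 FPKM (1.05) and Yeti from 96.1 to 195 FPKM (1.02). CG40498 went from 1.60 to 1.29 FPKM there and was not called.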

How the data were processed

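RNA from larval carcass was extracted with TRIzol, cleaned on RNeasy columns and prepared with a TruSeq RNA kit, per the labels' protocols. Cufflinks and Cuffdiff are named in the submitters' processing notes, without versions; the aligner, annotation, build, strand setting and read totals are unstated in the sources used here. The authors deposited 1 table per experiment, 13650 rows for smox against w1118. Each gives 1 FPKM per group, a test statistic (a score), a p-value and a q-value, and the authors' log2 fold change, in which 423 cells of the smox table hold no number. How 3 libraries became 1 FPKM is not given, 0 columns hold single libraries and depth is unknown, so no fit of the libraries was possible and the authors' q under 0.05 stands in for a test. The labels do not say that libraries came from separate animals, so q may measure technical spread.

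From the FPKM, log2(smox/w1118) was computed without a pseudocount (Python 3.11.15, pandas 2.3.3). It differed from the authors' column by at most 0.04. The calculation was tested on simulated data. Counts and medians used tested genes with both values above 0, a mean of at least 1 FPKM and a name that occurs once. Rows at 0 FPKM get no fold, since 0 may stand for a failed estimate. Rows that name several genes (258 of those tested) are printed with all names, and 2294 tested genes share their interval with another, so locus length was read only for the others. Coordinates are those of the tables, with 1 added to each start. Of 13939 gene names, 10500 were current symbols and 3180 matched through 1 synonym; lists were matched that way.

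The members and lists were chosen with earlier results of these data known. Named by rule were Smox and w, ranks 11 to 25 by fold in each direction among called genes with at least 10 FPKM in the higher group, the 10 largest gains and losses in FPKM, the 10 most abundant genes, genes at 0 in 1 group with at least 10 FPKM in the other, members of runs of neighbors, and per list up to 3 rises, 3 falls and 2 uncalled genes. Other names, such as those on 2RHet and chromosome 4, Cyp4g1 and genes around CG17105, were chosen after their values were seen. Alternatives were other FPKM minimums, a stricter q, a pseudocount, centring, and leaving out rows with several names or a shared interval. Medians that moved by less than 0.1 and counts within 1.5 times count as unmoved.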

Additional observations from a re-analysis of the deposited data

Results flagged for a closer look

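Genes at 0 in 1 group have no fold and stood outside the comparison, yet 8 of them were called in the authors' deposited table. The 3 that were at 0 in w1118 stand above that control level in smox: dro4, a drosomycin-like gene of the antifungal peptide family, at 20.0 FPKM, Obp56h, an odorant-binding protein gene, at 5.84 FPKM, and CG14273 at 2.49 FPKM. The other 5 were at 0 in smox, and the most abundant of them in w1118 was CG15711, at 7.37 FPKM. In the MhcGal4 group dro4 stood at 0.448 FPKM and CG15711 at 3.84 FPKM. The depth behind these values is unknown.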

How the results depend on the processing

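The count of called genes stayed within 1.5 times of 4638 under all 6 alternatives tried, from 3635 with rows of a shared interval left out, a choice made after seeing the data, to 4741 with no minimum. Centring, 1 of the 6, kept the authors' q and so could not change this count. The 725 genes changed by at least 2-fold became 462 with a minimum mean of 5 FPKM, 232 of them higher and 230 lower, since fewer genes are tested. The other 4 alternatives gave 561 to 790. The median of all genes lay between -0.14 and -0.13 under 4 alternatives. Centring moves every list median by 0.14 and turned 45 called genes from lower to higher. The minimum of 5 FPKM moved 13 of 73 list medians by over 0.1 and 26 of 148 list counts by over 1.5 times. The pseudocount brought the 2RHet median to -0.84. Leaving out the 10 highest rows rescales all other shares of summed FPKM in a group alike, so it says nothing about single lists. Leaving out single replicates was not run, as the tables hold no values per library. No paired analysis was possible because each group has 1 value per gene and no column carries a replicate number. FPKM without read counts gives no depth, so the precision of low values is unknown, and 69 genes with at least a 2-fold difference were not called, at a median level of 1.85 FPKM.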

Other observations

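Genes of ecdysone synthesis were picked out after their values were seen. Most of these enzymes act in the prothoracic gland, a part of the ring gland near the brain, and none of the gland's genes looked at was called in smox. The level of spok was 0.0229 FPKM (w1118) and 3.53 FPKM (smox) and that of phm was 0.0232 FPKM (w1118) and 2.10 FPKM (smox), with q = 0.25 and 0.324 in the authors' deposited table. With baboACT, spok went from 9.11 to 0.111 FPKM, which was not called, and phm from 7.60 to 0.202 FPKM. The values of both were higher in smox and lower with baboACT, and of these differences only that of phm with baboACT was called. Another gland enzyme, sad, had lower values in both. It was at 2.16 FPKM (w1118) and 1.85 FPKM (smox), with q = 0.443 in the authors' deposited table. With baboACT it went from 5.31 to 1.24 FPKM. The gene shd, whose enzyme makes the active hormone in peripheral tissues, rose in both, from 14.9 to 18.7 FPKM in smox and from 6.43 to 19.4 FPKM with baboACT. Whether gland tissue stayed in some carcasses was not tested.

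Among rows at 0 in 1 group and at 10 FPKM or more in the other, 25 of 28 were snoRNA or snRNA genes, 13 of them at 0 in smox, and 0 of these 25 were called. Rdh, listed at 0 in w1118 and at 31.9 FPKM in smox with q = 1 in the authors' deposited table, and Mhc are listed like them.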
